A study of Mus musculus with 2 samples.

Results

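The 46 genes described here encode the protein kinases of the mitogen-activated protein (MAP) kinase cascades. They were chosen by symbol alone: every mouse gene whose symbol is Map4k, Map3k, Map2k, Mapk or Mapkapk followed by a number, out of 55450 named genes measured in all tables. By tier these are 5 MAP4K, 18 MAP3K, 7 MAP2K, 13 MAPK and 3 MAPKAPK genes, all annotated as protein-coding. Symbols set the tiers, so kinases of the same tiers with other names, such as Braf or the TAO kinases, are not members and are given separately.

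Ribosomal RNA-depleted total RNA of nucleoplasm, the soluble nuclear contents, had been sequenced from macrophages grown from bone marrow of C57BL/6J mice. The cells had received Lipid A, the part of bacterial lipopolysaccharide sensed by Tlr4, at 100 ng/ml for 120 min, and the libraries are biological replicates 1 and 2 of 1 group. A label field names the fraction as nucleus, the labels name the same donor entry for both replicates, and RNA input was 1 µg for replicate 1 and 500 ng for replicate 2, so input and replicate cannot be told apart. Untreated cells, other times and other fractions were not analysed here, so the levels say nothing of induction and groups could not be compared.

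In these cascades each kinase phosphorylates and activates the next. MAP4K enzymes relay signals from receptors and small GTPases, MAP3K enzymes phosphorylate MAP2K enzymes on serine or threonine, and MAP2K enzymes phosphorylate both a threonine and a tyrosine in the activation loop of a MAPK. The ERK, JNK and p38 MAP kinases then act on transcription factors and on further kinases, among them those named MAPKAPK. In macrophages Tlr4 feeds the cascade mainly through Map3k7 (TAK1) and Map3k8 (TPL2), and the pathway controls transcription, stability and translation of cytokine mRNA.

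The activation loops are shown because in the MAPK genes below they mark the ERK, JNK and p38 groups. They also show how far paralogues differ over this short stretch of coding sequence. The MAP2K motif does not place a gene in its branch, since Map2k4 and Map2k5 carry the same one. Each stretch below is coding sequence of a GENCODE M21 transcript (mm10), 5′ to 3′, with the codons of the loop motif in capitals and the coordinates of those capitals. The ERK genes Mapk3 and Mapk7 carry threonine-glutamate-tyrosine there, and the atypical Mapk6 (ERK3) carries serine-glutamate-glycine.
Mapk3 (chr7:126763458-126763466, plus strand): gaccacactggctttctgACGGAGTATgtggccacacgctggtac
Mapk7 (chr11:61491422-61491430, minus strand): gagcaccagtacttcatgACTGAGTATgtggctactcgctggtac
Mapk6 (chr9:75395637-75395645, minus strand): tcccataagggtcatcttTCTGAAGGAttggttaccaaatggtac
The JNK genes carry threonine-proline-tyrosine.
Mapk8 (chr14:33393003-33393011, minus strand): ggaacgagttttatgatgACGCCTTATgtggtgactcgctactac
Mapk9 (chr11:49872830-49872838, plus strand): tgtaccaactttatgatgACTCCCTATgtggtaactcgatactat
Mapk10 (chr5:102989681-102989689, minus strand): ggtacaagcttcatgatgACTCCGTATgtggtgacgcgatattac
The p38 genes carry threonine-glycine-tyrosine.
Mapk14 (chr17:28728399-28728407, plus strand): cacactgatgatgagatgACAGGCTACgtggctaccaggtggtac
Mapk11 (chr15:89145866-89145874, minus strand): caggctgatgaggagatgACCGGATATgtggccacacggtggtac
Mapk12 (chr15:89134676-89134684, minus strand): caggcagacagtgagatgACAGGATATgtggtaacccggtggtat
Mapk13 (chr17:28776344-28776352, plus strand): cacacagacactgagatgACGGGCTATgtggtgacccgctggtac

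Over these 45 bases, Mapk3 and Mapk7 matched at 34 positions, Mapk8 and Mapk9 at 35, Mapk11 and Mapk14 at 36, and Mapk12 and Mapk13 at 37. In the MAP2K genes the capitals span the stretch between the regulatory residues, serine at its start and serine or threonine at its end.
Map2k1 (chr9:64193729-64193743, minus strand): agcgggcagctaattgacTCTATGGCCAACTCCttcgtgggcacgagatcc
Map2k2 (chr10:81119340-81119354, plus strand): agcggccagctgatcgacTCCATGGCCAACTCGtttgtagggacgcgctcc
Map2k3 (chr11:60946727-60946741, plus strand): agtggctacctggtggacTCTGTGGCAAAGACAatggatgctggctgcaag
Map2k6 (chr11:110496422-110496436, plus strand): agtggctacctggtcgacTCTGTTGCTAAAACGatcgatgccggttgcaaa
Map2k4 (chr11:65707014-65707028, minus strand): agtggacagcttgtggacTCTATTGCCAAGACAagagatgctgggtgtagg
Map2k7 (chr8:4244562-4244576, plus strand): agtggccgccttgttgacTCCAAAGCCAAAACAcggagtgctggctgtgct
Map2k5 (chr9:63262171-63262185, minus strand): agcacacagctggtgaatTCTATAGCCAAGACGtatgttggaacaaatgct
Over these 51 bases, Map2k1 and Map2k2, the activators of ERK, matched at 41 positions, and Map2k3 and Map2k6, the activators of p38, matched at 42. Within pairs that shared all or most loop residues, levels ranged from a modest ratio, as for Map2k1 and Map2k2, to almost all RNA on 1 gene, as for Map2k3 and Map2k6.

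RNA of most of the cascade was present in the nucleoplasm. Of the 46 kinases, 35 reached 1 TPM (a transcript level scaled by length and by the library's total) in both libraries, which was 76.1%, beside 40.5% of the 21938 protein-coding genes not encoded in mitochondria. By tier, 4 of 5 MAP4K, 14 of 18 MAP3K, 6 of 7 MAP2K, 8 of 13 MAPK and 3 of 3 MAPKAPK genes did so. A mean of 5 TPM or more was reached by 30. The members together took 0.294% of 14374739 counts in replicate 1 (95% Wilson interval 0.291% to 0.297%) and 0.215% of 16372797 counts in replicate 2 (0.213% to 0.217%); these intervals cover counting error only, since reads were not marked by molecular identifiers and cannot be taken as separate molecules.

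Raw levels were lower in replicate 2 for most members, as for most genes above the lowest levels. Among genes with a mean of at least 1 TPM, the median changed by -0.58 on the log2(TPM + 1) scale from replicate 1 to replicate 2, and 40 of the 46 kinases had the higher TPM in replicate 1 and 4 in replicate 2. The libraries also differed in markers of cell types. All 10 macrophage markers were detected, and their TPM summed to 1194 in replicate 1 and 2452 in replicate 2. Lyz2 weighed most in these sums, with 403 and 1316 TPM. Adgre1, Mertk and Spi1 had lower TPM in replicate 2, and the rest of the list higher. The 8 stromal markers summed to 60.5 TPM in replicate 1 and 0.31 TPM in replicate 2, where the collagen genes Col1a1 and Col3a1 had 8 and 0 counts against 1845 and 1084 in replicate 1. The part of these differences in the levels below was not tested, and in bulk RNA fewer cells of a type and less RNA per cell cannot be told apart. Of the B cell, neutrophil, neuron and mast cell markers none was detected, and the T cell list had only Lck and the endothelial list only Kdr above 1 TPM in both libraries.

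**Figure D1:**
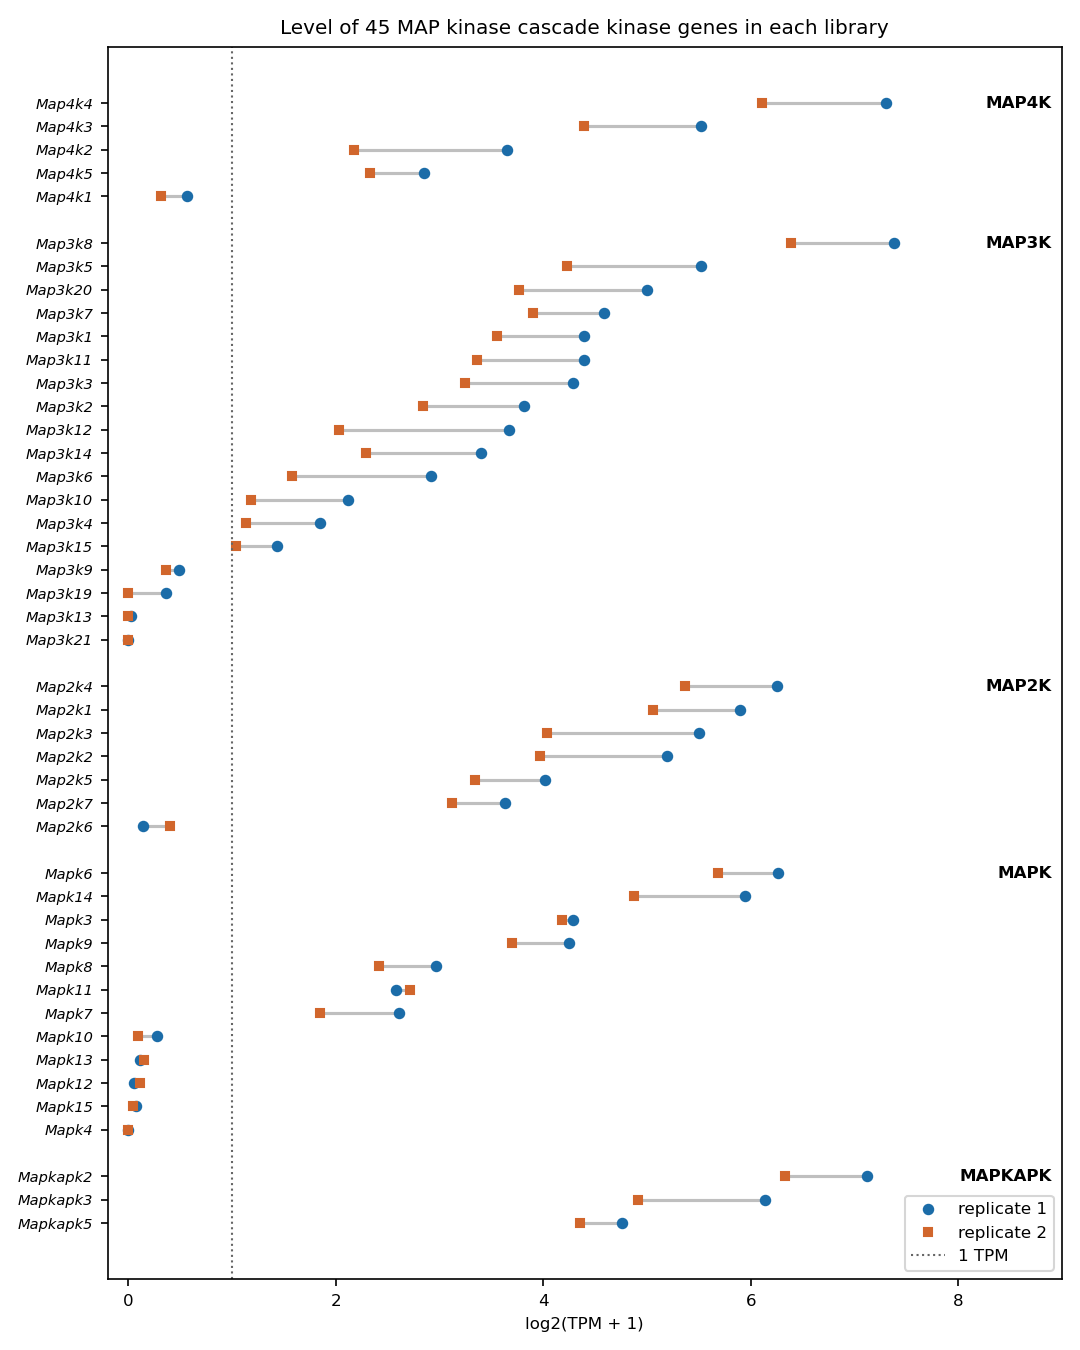
Level of 45 of the genes as log2(TPM + 1), by tier and ordered by mean TPM, with 1 circle for replicate 1 and 1 square for replicate 2; the dotted line marks 1 TPM. Map4k4, Map3k8 and Mapkapk2 lie farthest right in their tiers, 11 genes lie left of the line, and 39 circles lie right of their squares.

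The plot of levels shows that each tier had a few abundant genes and, except for the MAPKAPK tier, a tail near 0. Map3k8, Map4k4 and Mapkapk2 together held 35.6% of the members' summed TPM in replicate 1 and 34.8% in replicate 2.

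Among the MAP4K genes, Map4k4, a germinal centre kinase that acts upstream of JNK, led with 157 TPM in replicate 1 and 68.2 TPM in replicate 2 (112 ± 62.4, SD, n = 2), from 5016 and 4277 counts (chr1:39900913-40026310, plus strand). Map4k3, linked to amino acid sensing and growth signalling, followed with 44.99 and 20.0 TPM. Map4k4 exceeded Map4k3 by 3.48-fold and 3.40-fold, so this order held in both libraries. Map4k2, known as germinal centre kinase, had 11.5 and 3.52 TPM, and Map4k5 had 6.20 and 4.02 TPM. These neighbours changed places between the libraries, so their order is not resolved. Map4k1 (HPK1), a kinase of lymphocyte receptor signalling, had 0.48 and 0.24 TPM from 17 and 11 counts.

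Among the MAP3K genes, Map3k8 (TPL2, the kinase that couples Tlr4 to ERK and is held by the Nfkb1 precursor p105) stood highest, with 166 TPM in replicate 1 and 82.8 TPM in replicate 2 (124 ± 58.7, SD, n = 2) from 4136 and 3216 counts. In this gene table it had the highest mean of all 46 genes, 3.70-fold and 4.66-fold above the next MAP3K gene, Map3k5. In the authors' table made from the read files its mean was 92.1 TPM, below Map4k4 (147 TPM), Mapkapk2 (115 TPM) and Map2k4 (104 TPM). Map3k11 was the next MAP3K gene there with 36.1 TPM, so the first place holds within the tier in both tables but not among all members. These levels cover all transcripts of a gene. In the gene table's source, transcripts annotated as protein_coding held 26.6% and 33.4% of Map3k8 TPM and 84.9% and 90.9% of Map3k5 TPM. In the read-based table they held 26.4% and 29.0% for Map3k8 and 85.5% and 84.2% for Map3k11. The ranks therefore do not describe coding RNA alone. Map3k5 (ASK1, a kinase activated by oxidative stress) had 44.9 and 17.8 TPM. Map3k20 (ZAK, which senses stalled ribosomes) had 31.0 and 12.6 TPM. Map3k7 (TAK1, which activates both IKK and MAP kinases below Tlr4) had 23.0 and 13.9 TPM from 853 and 905 counts. Map3k20 and Map3k7 exchanged places between the libraries. RNA of both kinases of the Tlr4 route was thus present, and over all transcripts its level was far higher for Map3k8 than for Map3k7.

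The middle of the tier was close-spaced. Map3k1 (MEKK1, which acts towards JNK) had 20.1 and 10.7 TPM, Map3k11 (MLK3, a mixed lineage kinase) 20.0 and 9.28 TPM, and Map3k3 (MEKK3) 18.5 and 8.51 TPM. Map3k2 (MEKK2, which like MEKK3 acts towards ERK5) had 13.0 and 6.18 TPM. Map3k12 (DLK, a stress kinase best known from axons) had 11.7 and 3.09 TPM, and Map3k14 (NIK, the kinase of the noncanonical NF-kB route) had 9.56 and 3.91 TPM. From Map3k5 down to Map3k15, neighbours in the order by mean had overlapping ranges over the libraries, but these ranges include the shift between the libraries. Within each library some steps kept their size. Map3k5 exceeded Map3k20 by 1.45-fold and 1.41-fold, and Map3k3 exceeded Map3k2 by 1.42-fold and 1.38-fold. Map3k12 and Map3k14 changed places, as did Map3k20 and Map3k7.

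Lower in the tier, Map3k6 (ASK2, the partner of ASK1) had 6.56 and 1.98 TPM, Map3k10 (MLK2) 3.35 and 1.27 TPM, Map3k4 (MEKK4) 2.60 and 1.20 TPM, and Map3k15 (ASK3) 1.70 and 1.05 TPM. Exons of Map3k15 overlap Pdha1 on the other strand over 13.9% of their bases. Its counts, 98.59 and 92.02, and those of Pdha1, 181.41 and 244.98, carry decimals that complete each other in each library. Reads thus appear to have been divided between these genes, so the level of Map3k15 near 1 TPM is uncertain. Within the ASK group Map3k5 exceeded Map3k6 by 6.84-fold and 8.98-fold. The remaining MAP3K genes stayed under 1 TPM. Map3k9 (MLK1) had 0.40 and 0.29 TPM, Map3k19 had 14 and 0 counts, and Map3k13 (LZK, the paralogue of DLK) had 2 and 0 counts. Map3k21 (MLK4) had 0 counts in either library; a count of 0 still allows 3, or 0.0389 TPM in replicate 1 and 0.0258 TPM in replicate 2.

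The MAP2K tier was well represented in every branch, and its median level of 25.1 TPM compares with 7.07 TPM for the MAP3K tier. Map2k4 (MKK4, which phosphorylates JNK and p38) had 75.2 and 40.2 TPM from 1719 and 1732 counts. Map2k1 (MEK1) had 58.6 and 32.4 TPM and Map2k2 (MEK2) 35.5 and 14.7 TPM, so MEK1 exceeded MEK2 by 1.65-fold and 2.21-fold. Map2k3 (MKK3, an activator of p38) had 44.2 and 15.4 TPM from 819 and 520 counts. Its paralogue Map2k6 (MKK6) had 0.10 and 0.32 TPM from 1 and 7 counts. Of the dedicated p38 activators, RNA of Map2k3 was abundant in both libraries and that of Map2k6 was near the limit of counting. Map2k5 (MEK5, the activator of ERK5) had 15.2 and 9.13 TPM, and Map2k7 (MKK7, dedicated to JNK) had 11.4 and 7.69 TPM.

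Among the MAPK genes, Mapk6 (ERK3, an atypical MAPK that binds Mapkapk5) stood highest with 75.7 TPM in replicate 1 and 50.3 TPM in replicate 2 from 2964 and 3327 counts. Mapk14 (p38 alpha, the main inflammatory p38) had 60.4 and 28.4 TPM. Mapk3 (ERK1) had 18.5 and 17.2 TPM (17.8 ± 0.95, SD, n = 2). Mapk7 (ERK5) had 5.12 and 2.59 TPM.

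Of the JNK genes, Mapk9 (JNK2) had 18 and 11.95 TPM and Mapk8 (JNK1) 6.83 and 4.34 TPM. Mapk9 exceeded Mapk8 by 2.64-fold and 2.75-fold, a ratio that moved little between the libraries. Mapk10 (JNK3, known mainly from brain and heart) had 0.21 and 0.07 TPM from 16 and 9 counts.

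The p38 genes form neighbouring pairs in the genome. Mapk14 and Mapk13 lie on chromosome 17 on the same strand, 20890 bases apart, and Mapk11 and Mapk12 lie on chromosome 15 on the same strand, 1782 bases apart. Of each pair, 1 gene was detected in the gene tables. Mapk14 had 2012 and 1442 counts, and Mapk13 (p38 delta) had 2 and 4. Mapk11 (p38 beta) had 4.99 and 5.56 TPM from 154 and 274 counts, while Mapk12 (p38 gamma) had 1 and 2 counts; in the read-based table Mapk12 stood at 2.93 and 1.55 TPM. Mapk14 exceeded Mapk11 by 12.1-fold in replicate 1 and 5.11-fold in replicate 2. Of the other atypical members, Mapk15 (ERK8) had 1 count in each library and Mapk4 (ERK4) had 0 in both gene tables. A count of 0 allows 3 counts, or 0.0682 TPM in replicate 1 and 0.0452 TPM in replicate 2, for counting error alone, and the read-based table gave 1.09 and 0.58 TPM, so the level of Mapk4 is not settled.

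All MAPKAPK genes were abundant. Mapkapk2 (MK2, the p38 substrate that stabilises cytokine mRNA by phosphorylating Zfp36) had 138 and 79.6 TPM (109 ± 41.6, SD, n = 2) from 4865 and 4268 counts (chr1:131053700-131097826, minus strand). Mapkapk3 (MK3, its close relative) had 69.6 and 29.1 TPM, and Mapkapk5 (MK5) 26.1 and 19.5 TPM. MK2 exceeded MK3 by 1.99-fold and 2.74-fold, and these ranges did not overlap. For Mapkapk5, 56.5% of exon bases overlap Adam1a on the same strand, and its counts of 242 and 223 beside 242 and 216 for Adam1a include reads shared between genes, so its level is uncertain.

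Seen by tier, the median of mean TPM over all members was 7.53 for MAP4K, 7.07 for MAP3K, 25.1 for MAP2K, 5.28 for MAPK and 49.3 for MAPKAPK genes. Genes near 0 lower these medians. Over detected genes alone they were 20.0 for MAP4K, 11.6 for MAP3K, 27.4 for MAP2K, 16.4 for MAPK and 49.3 for MAPKAPK genes, so the gaps between the MAP4K, MAP3K and MAPK tiers depend on that choice. The median over detected protein-coding genes was 10.7 TPM in the first library and 7.35 TPM in the second.

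Other parts of the pathway were present alongside. Of the RAF and MOS kinases, MAP3K enzymes by function, 3 of 4 were detected. Braf had 25.8 and 13.6 TPM and Araf 17.9 and 14.0 TPM, while Mos had 0.63 and 0 TPM. All 3 TAO kinases were detected, with Taok3 at 48.8 and 29.9 TPM, Taok1 at 34.2 and 23.4 TPM and Taok2, the lowest, at 31.5 and 18.2 TPM. Of the 6 germinal centre and PAK kinases 5 were detected, led by Stk4 (65.1 and 35.1 TPM), Pak2 (21.8 and 18.8 TPM) and Mink1 (20.8 and 11.8 TPM), with Tnik lowest at 2.51 and 0.53 TPM.

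Of 15 scaffolds and partners, 11 were detected. Nfkb1, whose p105 product binds TPL2, had 383 and 164 TPM, above every member kinase. The JNK scaffold Mapk8ip3 had 142 and 74.5 TPM and the TAK1 partner Tab2 110 and 74.8 TPM, while Mapk8ip2 had 0 counts in both. Of 11 RAS module genes 10 were detected, led by the RAF inhibitor Spred1 (111 and 64.5 TPM), the GTPase-activating protein gene Rasa1 (57.4 and 48.6 TPM) and Nras (40.1 and 37.1 TPM), with Spry4 lowest at 0.05 and 0.01 TPM.

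Downstream, 7 of 8 other MAPK-activated kinases were detected, led by Rps6ka3 (RSK2) at 60.7 and 32.7 TPM, Mknk1 at 28.3 and 14.5 TPM and Rps6ka4 (MSK2) at 26.8 and 8.91 TPM, with Rps6ka6 at 0 counts in both. Of 10 MAPK phosphatases, which remove the activating phosphates, 6 were detected. Dusp2 had 261 and 152 TPM, Dusp1 159 and 72.6 TPM and Dusp16 48.2 and 24.8 TPM, and Dusp9 was lowest with 1 count in each library. All 10 substrate genes were detected, led by Zfp36 (115 and 81.7 TPM), Mef2a (79.9 and 39.1 TPM) and Creb1 (49.0 and 31.7 TPM), with Myc lowest at 4.55 and 1.20 TPM.

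Against the shift of the whole table, most kinases were somewhat lower in replicate 2. The relative difference used here is the log2 ratio of TPM + 1 in replicate 2 over replicate 1, minus -0.58, the median of the 12647 genes with a mean of at least 1 TPM; the pseudocount of 1 understates it for low genes. Of the 35 kinases at that mean, 26 were below 0 and 9 above, with a median of -0.30 and a range from -1.06 to 0.71. With centring on protein-coding genes, chosen after seeing the data, 30 were below 0 and 5 above. A 2-fold difference was reached by 1 kinase downwards, Map3k12, and by 0 upwards, beside 5.01% of the 12647 genes lower and 5.31% higher. Each side of this comparison is 1 library, so there is no p-value, and it describes these libraries.

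**Figure D2:**
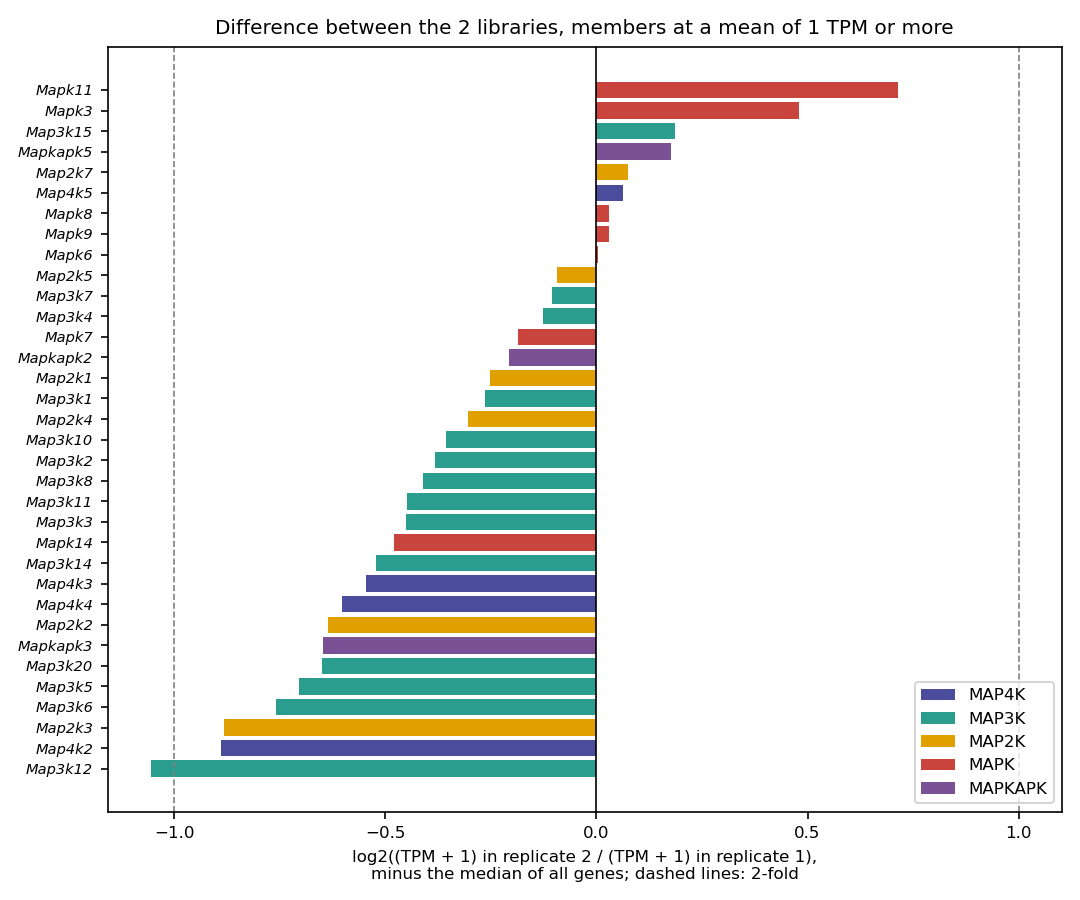
Relative difference between the libraries for 34 of the kinases at a mean of 1 TPM or more, coloured by tier, where bars left of 0 are lower in replicate 2 than the median gene, and dashed lines mark 2-fold. Map3k12 passes the left line at -1.06, no bar passes the right line, and Mapk11 and Mapk3 reach farthest right.

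By tier, of 14 MAP3K genes 13 were below 0, with a median of -0.43, as were 3 of 4 MAP4K genes (median -0.57) and 5 of 6 MAP2K genes (median -0.28). The MAPK genes divided, 5 above 0 and 3 below, with a median of 0.02. This division depends on the centre: with centring on protein-coding genes 2 were above 0 and 6 below, with a median of -0.05. The difference between tiers was not tested. No list of other pathway genes had a member past 2-fold in either direction. Of the 10 macrophage markers 9 were above 0, unlike most kinases, with a median of 1.14 and 5 past 2-fold higher in replicate 2. Spi1 was below 0 at -0.27, and Mertk was at 0.06. The part of these markers in the result was not tested.

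Map3k12 (chr15:102497646-102517064, minus strand) had 695 counts in replicate 1 and 294 in replicate 2. Part of the change lay in Map3k12-202, a transcript annotated as retained_intron with 3348 of its 3373 bases inside intron 1 of 13 of the coding transcript Map3k12-201. It took 190 counts in replicate 1, 27.3% of the gene (95% Wilson interval 24.2% to 30.8%), and 18 in replicate 2, 6.12% (3.91% to 9.47%). These intervals, and those of transcript shares below, cover counting error only. They leave out error in how reads were divided between transcripts of a gene. The coding Map3k12-201 had 500 and 273 counts. Exons of Map3k12 overlap Pcbp2 on the other strand over 17.5% of their bases. The sources used here do not say whether counting used strand. In replicate 2 the counts of Map3k12 and Pcbp2, 294.01 and 1587.99, carry decimals that complete each other. In replicate 1 (695.36 and 1667.31) they do not. Reads thus appear to have been divided between genes on opposite strands, so part of the Map3k12 counts may come from Pcbp2. The relative difference was -0.97 with TMM scaling, -0.9997 with DESeq2 size factors, just short of 2-fold, and -0.92 in the read-based table, while it was -1.21 with a pseudocount of 0.1, -1.12 with centring on protein-coding genes and -1.08 with FPKM. Whether Map3k12 passes 2-fold therefore depends on the setting.

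Mapk11 moved furthest the other way, with a relative difference of 0.71. Its transcript Mapk11-204, annotated as retained_intron and holding introns 5 and 8 of 11 of Mapk11-201 (88 and 199 bases), had 46.4 counts in replicate 1 and 143 in replicate 2, or 30.1% (23.2% to 37.5%) and 52.3% (46.3% to 58.0%) of the gene. The coding Mapk11-201 had 107 and 131 counts, so the estimated ratio of the retained_intron transcript to the coding one was higher in replicate 2. How far the division of reads between these transcripts affects that ratio was not tested. Mapk3, at 0.48, is the other kinase above 0.2. Map4k2 (-0.89), Map2k3 (-0.88), Map3k6 (-0.76) and Map3k5 (-0.71) lay nearest to Map3k12 on the low side.

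In nuclear RNA, reads from introns can make up much of a gene's reads. The shares below are of reads placed on annotated transcripts. Whether such reads came from transcripts that keep an intron or from RNA not yet spliced was not tested. The members have 325 annotated transcripts, of which 152 are protein_coding, 78 retained_intron, 72 processed_transcript (no open reading frame), 22 nonsense_mediated_decay and 1 non_stop_decay. There were 24 kinases with at least 5 TPM in each library, and 18 of them have a retained_intron transcript. The median of their retained-intron shares of TPM was 36.0% in replicate 1 and 27.7% in replicate 2, beside 39.3% and 33.0% for 3788 protein-coding genes chosen in the same way. Counted by estimated counts, which are not divided by length, the mean share over both libraries had a median of 11.6% in the kinases and 22.5% in those genes, and 4 of 18 kinases lay above the latter. By TPM, 6 of 18 did.

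**Figure D3:**
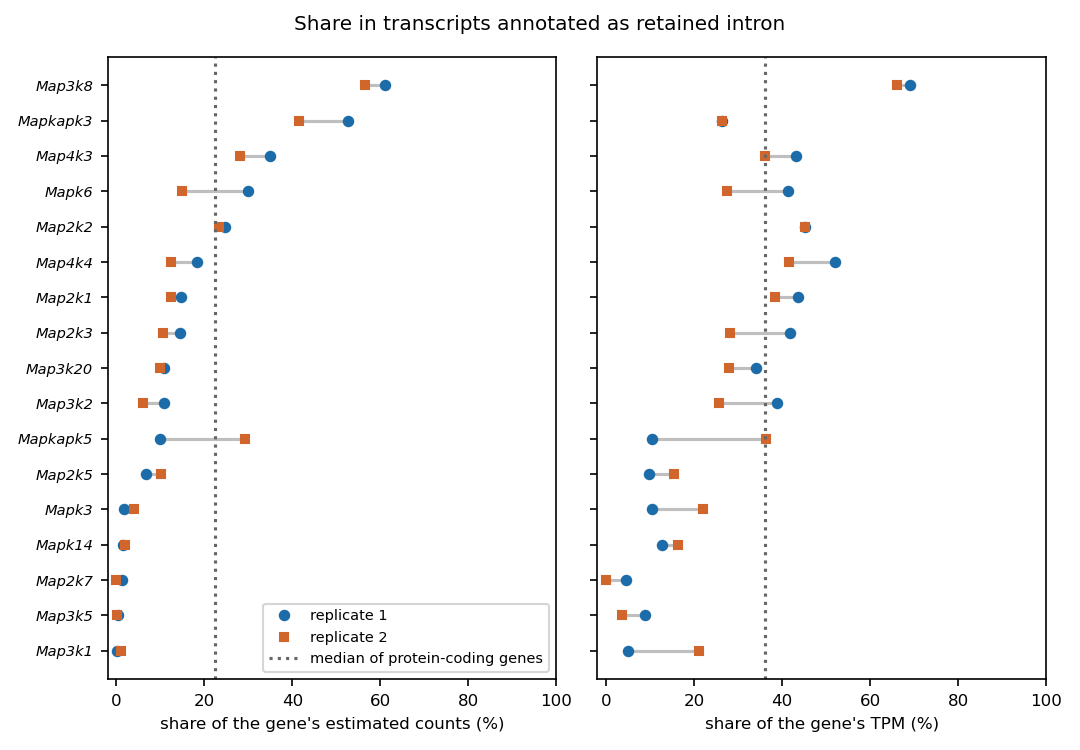
Share of each kinase's transcripts annotated as retained_intron, in percent of its estimated counts (left) and of its TPM (right), for 17 of the kinases at 5 TPM or more in both libraries that have such a transcript; the dotted lines mark the median of protein-coding genes. Map3k8 has the highest share in both panels, and Mapkapk3 is second by counts but below the line by TPM.

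Map3k8 had the highest share of the kinases in the plot of retained-intron shares. Of its counts, 61.2% in replicate 1 (95% Wilson interval 59.7% to 62.6%) and 56.6% in replicate 2 (54.8% to 58.3%) were in retained_intron transcripts, and of its TPM 69.0% and 66.2%. Of the 3788 genes, 12.7% and 12.5% had a higher share of counts, and 23.3% and 20.7% did in the read-based table. A single transcript, Map3k8-203, carried most of it, with 2399 and 1722 counts against 1459 and 1383 for the coding Map3k8-201. Of its 2048 bases, 1526 lie inside intron 2 of 7 of Map3k8-201, an intron of 5791 bases that it covers only in part. In the read-based table the retained-intron share of counts was 52.5% and 49.8%. In the alignment-based table, transcripts annotated without a coding sequence thus held most Map3k8 counts in both libraries.

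Mapkapk3 came next by counts, with 52.8% (50.2% to 55.3%) and 41.6% (38.8% to 44.4%). The share was 26.3% and 26.4% of TPM, since Mapkapk3-206, with 728 and 457 counts, is 3729 bases long. This transcript holds the whole of intron 3 of 10 of Mapkapk3-201, 1137 bases at chr9:107262488-107263624 on the minus strand, inside the coding sequence. Its ends are shown with the splice dinucleotides in capitals, the exon before the first pair and after the second.
Mapkapk3-206, 5′ end of the intron: tgtcatggaatgGTaggcgggcaggcag
Mapkapk3-206, 3′ end of the intron: tttctgcttgtcttgcAGcatggagggtgg
Map4k3 had 34.9% (32.9% to 37.0%) and 28.2% (25.9% to 30.5%) of its counts in such transcripts. One of them, Map4k3-206, with 263 and 156 counts, holds intron 7 of 32 of Map4k3-203, 1485 bases at chr17:80649600-80651084 on the minus strand.
Map4k3-206, 5′ end of the intron: acgtgaaactagGTaagttaatcaaaat
Map4k3-206, 3′ end of the intron: ctctcattcttttaatAGctgattttggag
Both introns begin with GT and end with AG, the usual splice dinucleotides, shown here as annotation and not as evidence of their use.

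The other kinases differed widely. Mapk6 had 29.9% (28.2% to 31.5%) of its counts in retained_intron transcripts in replicate 1 and 15.0% (13.8% to 16.3%) in replicate 2, chiefly Mapk6-204 with 818 and 440 counts, of whose 3228 bases 1776 lie in intron 3 of 5. Map2k2 had 24.6% and 23.4%, and Map4k4 18.2% and 12.5%. Map3k5 and Map3k1 had under 2% in each library. Mapkapk2 has no transcript annotated in that class, so its share is 0 by annotation, and its coding Mapkapk2-201 held 98.8% and 99.1% of its counts. 

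The processed_transcript class held its highest shares of TPM in Mapk9 and Map3k7. Mapk9 had 64.7% and 51.7% of TPM there, and 40.4% and 28.1% of counts, with Mapk9-206 at 211 and 166 counts beside 262 and 330 for the coding Mapk9-201. Map3k7 had 56.8% and 48.1% of TPM but 10.1% and 6.76% of counts, and its coding transcripts Map3k7-201 and Map3k7-202 took most of the rest. For TAK1 the class was large only after division by length, as its transcript with most counts, Map3k7-205, has 865 bases against 5773 for Map3k7-201. Mapkapk5 followed with 36.4% and 36.3% of TPM and 27.4% and 40.2% of counts, and Map2k5 had 36.3% and 26.0% of TPM.

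The authors' second quantification, made from the read files, changed part of the order. Of 17 neighbouring steps in the MAP3K tier 8 did not keep their order in both libraries there, nor did 6 of the other 24 steps within tiers. Some of these steps had no fixed order in the gene table either. Among them are Map4k2 and Map4k5, Map3k20 and Map3k7, and Mapk8 and Mapk11. Among the 35 detected kinases its TPM was 0.488 to 2.60 times that of the gene table in replicate 1 (median 0.956) and 0.610 to 2.15 times in replicate 2 (median 0.929), and it also placed 35 members at 1 TPM or more in both libraries. Of these, 34 were the same genes, since Map3k15 fell under 1 TPM there and Mapk12 came above it.

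**Figure D4:**
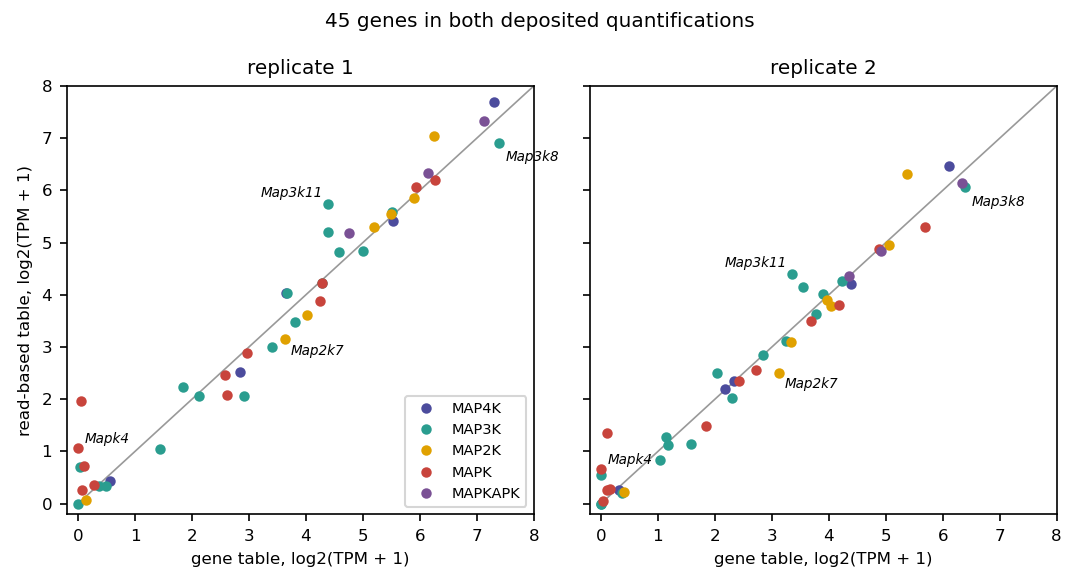
Level of 45 of the genes in the gene table (x axis) and in the table made from the read files (y axis), both as log2(TPM + 1), for each replicate; the line marks equal values and colours mark tiers. Map3k11 lies farthest above the line among detected genes, Map2k7 lies below it, and Mapk4 is above it at 0 on the x axis.

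Among detected kinases in the plot of both quantifications Map3k11 departed most, with 52.2 and 20.0 TPM in the read-based table against 20.0 and 9.28 TPM in the gene table. Map2k4 had 130 and 78.6 TPM there, and Map2k7, of whose exon bases 35.2% overlap Gm49320 on the same strand, had 7.91 and 4.69 TPM. The ratio of Map2k4 to Map2k7, 6.62 and 5.23 in the gene table, was 16.5 and 16.7 in the read-based one. That of Map3k5 to Map3k6 was 14.7 and 15.1 there. Other paralogue ratios moved less. In the read-based table Mapk14 exceeded Mapk11 by 14.6-fold and 5.82-fold, Mapk9 exceeded Mapk8 by 2.16-fold and 2.48-fold, and Map2k1 exceeded Map2k2 by 1.47-fold and 2.17-fold.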

How the data were processed

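The report covers 2 libraries of 1 group. The members and lists were chosen with earlier results of these data known. The deposited gene and transcript tables were made by the authors from a transcriptome alignment, and another deposited transcript table from the read files, on mm10 with annotation M21, per the labels' accompanying notes. Not given in the sources used here are the tools, their versions and the use of strand. Per the file headers, the deposited gene values include expected counts, effective length, TPM and FPKM, and the expected counts carry decimals. As usually defined, TPM values are divided by effective length and brought to a common total, and FPKM values scale fragments by length and depth. FPKM served only as an alternative.

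Symbols were read from the target identifiers of the read-based table and joined by gene identifier. Rows outside the annotated genes, 1.45% and 0.279% of counts, stayed out of all medians and lists. Detection meant 1 TPM or more in both libraries, and class shares used genes at 5 TPM or more in both. The limit for a count of 0 was set at 3 counts. Fractional counts in 8 members (beyond a tolerance of 0.005) mark reads shared with other genes, and exons of 13 members overlap exons of another gene. For Map3k15 that gene lies on the other strand, so the counting does not appear to have kept the strands apart. Whether the libraries came from separate cultures beyond their separate biosample entries is not stated, so the spread may be in part technical. Named genes follow a rule: every member, with values in each library at a mean of 5 TPM or more, and the 3 highest and the lowest gene of each pathway list. A member and a list gene that fall under this rule are counted but not reported here. Sequences are those of GENCODE M21 transcripts on mm10. Alternative scalings came from edgeR 4.0.16 (TMM) and DESeq2 1.42.0 in R 4.3.3, without a test. The difference calculation was tested on simulated data with changes larger than 2-fold and no difference in cell types. That test therefore does not cover differences near 2-fold. Tables and plots were made with pandas 2.3.3, matplotlib 3.10.9, numpy 2.4.6 and scipy 1.17.1 under Python 3.11.15.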

Additional observations from a re-analysis of the deposited data

Results flagged for a closer look

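The table made from the read files, which the levels in the report do not use, gave signal for 3 genes with 3 or fewer counts in the gene tables. Map3k13 had 146.1 estimated counts in replicate 1 and 177.4 in replicate 2. These were all placed on Map3k13-202 in replicate 1 and all on Map3k13-203 in replicate 2. Mapk4 had 134.2 and 118.2 estimated counts, all on Mapk4-201, against 0 counts in both gene tables. Mapk12 had 125.9 and 110.3 estimated counts, of which 120.9 and 104.3 were on Mapk12-202, a transcript annotated as retained_intron. In TPM these genes stood at 0.62 and 0.46, 1.09 and 0.58, and 2.93 and 1.55. Only Mapk12 would thereby reach 1 TPM in both libraries. Each signal is above the limit of 3 counts in both replicates, and what places these reads was not tested.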

How the results depend on the processing

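No paired analysis was possible because the 2 replicates belong to 1 group. The number of kinases detected was 35 with FPKM, with the read-based table and without replicate 1 or replicate 2, and 24 at 5 TPM. The number past 2-fold between the libraries was 1 with the main setting, FPKM and the protein-coding centre, but 2 with a pseudocount of 0.1 (Map3k12 and Map4k2), 0 with TMM and 0 with DESeq2 size factors, 2 in the read-based table (Map2k3 and Map4k2), and 14 with no filter on low values, where genes at 0 in both libraries put the median at 0; 40 kinases were then lower and the median difference was -0.70. Elsewhere 25 to 30 of 35 kinases were lower, with medians from -0.37 to -0.22. The MAP4K median of 7.53 TPM was 20.0 over detected genes alone. The MAPK median of 5.28 TPM was 16.4 over detected genes, 6.05 with FPKM and 4.69 in the read-based table, and 4.34 to 5.12 leaving out each replicate. Leaving out a replicate gave 4.02 to 11.5 for MAP4K, 3.50 to 10.6 for MAP3K, 14.7 to 35.5 for MAP2K and 29.1 to 69.6 for MAPKAPK, and retained-intron shares of 27.7% to 36.0%. That median share, 31.6% of TPM, was 33.3% in the read-based table and 11.6% by counts, an alternative chosen after seeing the data. The read-based table moved the level of 13 of 46 kinases by more than their SD. That SD includes the shift between the libraries, so the count does not measure how far the quantifications differ. The mean of Map3k8 stayed within its SD (124 and 92.1 TPM), while that of Mapk11 did not (5.28 and 4.69 TPM). The cause of these changes was not tested, except that fewer genes enter a median over detected genes and that counts are not divided by length. Depth limits the 11 kinases with under 25 counts in each library.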
